A study of Homo sapiens with 34 samples.

Results

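The collagen genes were followed across the histone marks of neuroblastoma cells. Members were the protein-coding genes of chromosomes 1 to 22 and X in the GENCODE release 44 annotation of hg38 whose symbol is COL, digits, A and digits. The rule used the symbol only, and it gave 44 of 19970 genes, spread over 17 chromosomes. Collagen genes are long, with a median of 145 kb against 27.5 kb for all protein-coding genes, and carried a median of 7.5 annotated start sites against 5.

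Sequencing of immunoprecipitated chromatin (ChIP-seq) was available for 5 histone marks in KELLY, a human neuroblastoma cell line in which MYCN is amplified. The cells carried a short hairpin RNA, switched on by doxycycline, that targets the transcriptional co-repressor RUNX1T1, and received either the solvent DMSO or doxycycline for 72 h, so that both groups held the hairpin and differed in its induction. Each mark had 3 libraries per treatment, which gave 30 peak lists, each called on its own library. The comparison asks whether the marks at the collagen genes differed once the hairpin was induced. The peak lists measure chromatin marks and not RNA or protein, so the level of RUNX1T1 and of the collagens was not analysed here. No cells with doxycycline but without the hairpin were among the samples used here, so the agent and the hairpin cannot be told apart.

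Collagens are secreted or membrane-bound proteins in which 3 chains wind into a triple helix. Fibrillar collagens build the tensile fibres of connective tissue, type IV chains build the sheets of basement membranes, and the fibril-associated (FACIT), transmembrane and multiplexin groups link these networks to cells and to each other. In tumors much of the fibrillar collagen is made by stromal fibroblasts, whereas Schwann cells also make basement membrane collagens. Among the marks, H3K4me3 is found at the starts of genes poised for or engaged in transcription, H3K27ac at active promoters and enhancers, H3K4me1 and H3K4me2 at enhancers and around promoters, and H3K27me3 at genes repressed by the Polycomb complexes.

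A gene was said to have a promoter peak in a list when a peak shared at least 1 bp with the 1 kb either side of any of its start sites. A mark was taken as present in a treatment when 3 of 3 lists had such a peak. Genes were then put into 1 of 6 states. These were active (H3K4me3 and H3K27ac without H3K27me3), H3K4me3 without H3K27ac or H3K27me3, bivalent (H3K4me3 with H3K27me3, whether or not H3K27ac was there), Polycomb (H3K27me3 without H3K4me3), other (H3K4me1, H3K4me2 or H3K27ac only) and bare (none of the 5 marks). The names stand for combinations of peaks. A mark called in fewer than 3 of 3 lists counted as absent, so a gene named bare can have single calls. The second state is called H3K4me3 alone below, whether or not H3K4me1 or H3K4me2 was there. The marks came from separate libraries of bulk chromatin, so 2 marks at 1 promoter may lie in different cells, and a mark that is weak in all cells and a mark that is strong in few cannot be told apart.

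Promoters of 4 members are shown as examples of some of the states described below. In each, CG dinucleotides, the targets of DNA methylation and the landmark of CpG islands, are in capitals. Each is the 120 bases just before the start site, 5′ to 3′ on the strand of the gene, from RefSeq on GRCh38.p14, and each start lay 0 bp from the annotated one. They are COL6A2 (chr21:46097992-46098111, plus strand, active in both treatments), COL5A1 (chr9:134641683-134641802, plus strand, H3K27me3 in the doxycycline lists), COL9A2 (chr1:40317287-40317406, minus strand, all 5 marks in all lists) and COL28A1 (chr7:7535874-7535993, minus strand, bare). They hold 17, 11, 11 and 1 CG. No promoter in the Polycomb, H3K4me3 alone or other state is among them, and CG content was not compared between states.
COL6A2: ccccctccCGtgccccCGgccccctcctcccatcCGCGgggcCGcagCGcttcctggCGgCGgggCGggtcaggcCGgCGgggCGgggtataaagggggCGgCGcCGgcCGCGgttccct
COL5A1: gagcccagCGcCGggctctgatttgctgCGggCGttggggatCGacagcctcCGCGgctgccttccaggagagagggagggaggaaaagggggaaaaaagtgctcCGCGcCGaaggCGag
COL9A2: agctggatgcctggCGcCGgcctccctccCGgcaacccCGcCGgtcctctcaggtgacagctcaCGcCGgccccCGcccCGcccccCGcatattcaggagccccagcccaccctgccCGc
COL28A1: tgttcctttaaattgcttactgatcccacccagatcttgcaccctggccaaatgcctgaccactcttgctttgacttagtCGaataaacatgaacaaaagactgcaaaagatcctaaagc

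The RefSeq promoter table matched 32 of the 44 members (72.7%), too few for a comparison of base composition over the set, so none is given.

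The type IV genes lie as 3 head-to-head pairs, in which both genes are read outward from a shared stretch. The shared stretches are shown because a peak there belongs to both genes, with CG again in capitals and on the plus strand of hg38. Between COL4A1 and COL4A2, whose main starts are 127 bp apart, the 100 bases free of annotated exons (chr13:110307158-110307257) hold 14 CG. Between COL4A3 and COL4A4, with main starts 419 bp apart, the 170 bases outside both genes (chr2:227164454-227164623) hold 12 CG. Between COL4A5 and COL4A6, with main starts 1416 bp apart, the 300 bases next to COL4A5 (chrX:108439538-108439837) hold 9 CG.
COL4A1 and COL4A2: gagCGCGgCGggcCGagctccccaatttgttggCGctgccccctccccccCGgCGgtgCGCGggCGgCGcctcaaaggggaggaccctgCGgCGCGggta
COL4A3 and COL4A4: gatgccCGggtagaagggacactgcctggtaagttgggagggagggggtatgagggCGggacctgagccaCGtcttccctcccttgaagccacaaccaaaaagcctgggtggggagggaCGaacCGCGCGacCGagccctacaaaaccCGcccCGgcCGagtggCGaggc
COL4A5 and COL4A6: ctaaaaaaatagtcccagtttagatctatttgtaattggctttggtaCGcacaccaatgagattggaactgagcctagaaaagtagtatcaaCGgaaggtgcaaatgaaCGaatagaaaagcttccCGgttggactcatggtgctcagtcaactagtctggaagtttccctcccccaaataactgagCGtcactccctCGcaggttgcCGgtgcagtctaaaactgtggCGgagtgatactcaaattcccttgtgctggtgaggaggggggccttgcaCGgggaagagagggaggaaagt

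Technical differences between lists bear on what follows. Calling depth, the smaller of the ChIP and input read totals, was 71.9 to 81.1 M in the DMSO lists and 57 to 63.4 M in the doxycycline lists. It therefore cannot be told apart from treatment. Input totals were 74.5 to 81.5 M in DMSO and 57.0 to 63.4 M in doxycycline, while ChIP totals overlapped, at 71.9 to 85.2 M and 57.1 to 84.6 M. The H3K27me3 lists were of 2 kinds. Replicate 1 of DMSO and replicates 1 and 2 of doxycycline had fragment length estimates of 256 to 280 bp (long kind), while replicates 2 and 3 of DMSO and replicate 3 of doxycycline had 105 to 112 bp (short kind), against 205 to 278 bp in the 24 lists of the other marks. Tests between treatments that use H3K27me3 are therefore also given with the kind as a term. The labels do not say whether replicates came from separate cultures, so p-values measure only the spread between these samples. As a check of the label, 10 of 10 promoters of adrenergic neuroblastoma markers (HAND2, GATA3 and others) were active in both treatments. Of 7 fibroblast markers, PDGFRB and THY1 were active, PDGFRA and PRRX1 bivalent, LUM and DCN in the other state and FAP bare, in both treatments. The leukocyte marker PTPRC was bare and the endothelial markers PECAM1 and CDH5 were Polycomb and other. The Schwann cell markers SOX10 and S100B were in the other state in both treatments.

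Collagen promoters were spread over all 6 states, with small shares in the active state and large shares under H3K27me3. In DMSO 10 of 44 members were active (22.7%, against 59.4% of all genes), 10 were bivalent (22.7% against 11.1%) and 10 were Polycomb (22.7% against 9.77%). A further 4 had H3K4me3 without H3K27ac or H3K27me3 (9.09% against 2.11%), 5 were in the other state (11.4% against 4.39%) and 5 were bare (11.4% against 13.2%). In doxycycline 6 were active (13.6%, against 58.2% of all genes), 14 bivalent (31.8% against 12.1%), 10 Polycomb (22.7% against 11.1%), 4 H3K4me3 alone (9.09% against 2.00%), 2 other (4.55% against 3.99%) and 8 bare (18.2% against 12.7%). The difference between members and other genes was not tested.

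**Figure D1:**
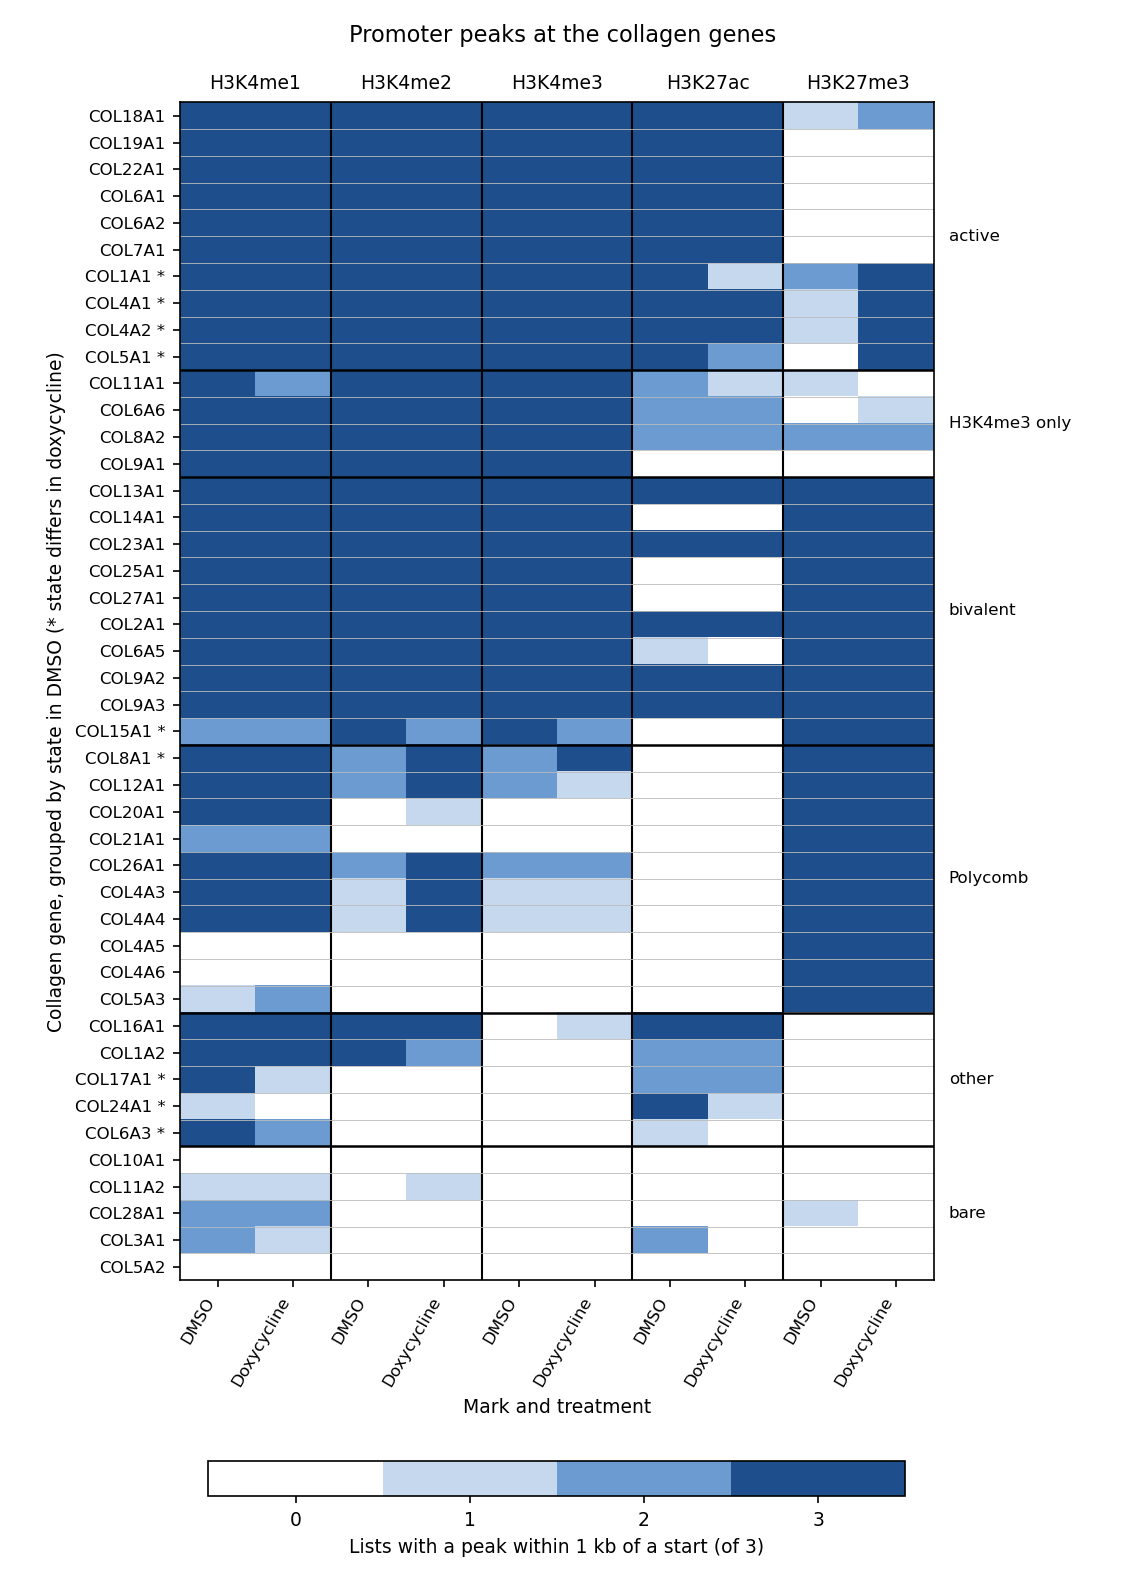
Number of lists (0 to 3, from white to dark blue) with a peak within 1 kb of a start site, for each of the 44 collagen genes (rows, grouped by their state in DMSO) and each mark and treatment (columns). Active genes form a block of dark cells in the first 4 marks and Polycomb genes a dark column in H3K27me3, and an asterisk marks the 9 genes whose state differed in doxycycline.

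Marks of opposite kinds were called at the same gene in several members, though not always at the same start site, since a call pools all starts of a gene. A promoter peak of H3K27me3 was present in 6 of 6 lists at 20 members (45.5%, against 20.1% of all genes) and one of H3K27ac at 14 (31.8% against 64.2%). At 5 members, COL2A1, COL9A2, COL9A3, COL13A1 and COL23A1, all 5 marks were found in 6 of 6 lists (11.4% against 3.25% of all genes). Of these 5, COL2A1 and COL9A2 had a start whose own 1 kb window held both H3K27ac and H3K27me3 in all 3 lists of both treatments, and the other 3 had no such start. H3K4me3 and H3K27me3 shared the window of at least 1 start in all 10 members that were bivalent in DMSO and all 14 in doxycycline. At the other extreme, COL5A2 and COL10A1 had no promoter peak in any of the 30 lists (4.55% against 5.60%).

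Among the 11 fibrillar genes the states were the most mixed of the classes in number, all 6 being found in DMSO. COL1A1 and COL5A1 were active in DMSO, and COL2A1 and COL27A1 were bivalent in both treatments. COL11A1 had H3K4me3 alone, with H3K27ac in 2 of 3 DMSO and 1 of 3 doxycycline lists and H3K27me3 in 1 DMSO list. COL5A3 was Polycomb, COL1A2 and COL24A1 were in the other state and COL3A1, COL5A2 and COL11A2 were bare. COL1A1 and COL1A2, the chains of type I collagen, the main protein of bone, skin and tendon, thus differed from each other. COL1A1 had H3K4me3 peaks in all lists, with fold enrichment over input (ChIP signal divided by the local input level) of 9.35, 15.9 and 5.95 in DMSO and 10.1, 11 and 5.32 in doxycycline. COL1A2 had no H3K4me3 or H3K27me3 peak in any list, but H3K4me1 in all, at 4.17, 2.84 and 2.32 in DMSO and 4.18, 3.18 and 2.90 in doxycycline. Its H3K27ac peaks were in 2 of 3 lists of each treatment, with 2.89 and 2.17 in DMSO replicates 1 and 2 and 3.02 and 2.81 in doxycycline replicates 1 and 2.

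COL3A1, the single chain of the type III collagen of vessels and skin, had no peak of H3K4me2, H3K4me3 or H3K27me3 in any list. It showed H3K4me1 in DMSO replicates 1 and 3 (fold enrichment 2.74 and 2.14) and doxycycline replicate 3 (2.24), and H3K27ac in DMSO replicates 1 and 3 (2.83 and 2.55). Its tail-to-tail neighbour COL5A2, a chain of the type V collagen that seeds fibrils, lies 19.2 kb away and had no promoter peak in any list. COL2A1, the cartilage collagen, was on the contrary marked by all 5 marks.

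The network-forming classes were split as well. Of the 6 basement membrane genes, COL4A1 and COL4A2 were active in DMSO and the remaining 4 were Polycomb in both treatments. Among the hexagonal network genes, COL8A2 had H3K4me3 alone, COL8A1 was Polycomb in DMSO, and COL10A1, made by hypertrophic cartilage, was bare. COL8A2 missed other states narrowly, with H3K27ac and H3K27me3 each in 2 of 3 lists of both treatments. Of the beaded-filament genes of type VI collagen, COL6A1 and COL6A2 were active, COL6A6 had H3K4me3 alone and COL6A5 was bivalent. COL6A6 had H3K27ac in 2 of 3 lists of each treatment. COL6A3, which codes for the third classical chain, had neither H3K4me3 nor H3K27me3 in any list. COL6A1 and COL6A2 lie in the same direction 93.1 kb apart on chromosome 21. COL7A1, the anchoring fibril gene of skin, was active in both treatments.

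All 10 FACIT genes had the same state in both treatments by marks in 3 of 3 lists. COL19A1 and COL22A1 were active, COL9A2, COL9A3 and COL14A1 bivalent, COL12A1, COL20A1 and COL21A1 Polycomb, COL9A1 had H3K4me3 alone and COL16A1 was in the other state, with H3K27ac, H3K4me1 and H3K4me2 in all lists but H3K4me3 in 1 of 6. The 3 genes of type IX collagen, a cartilage protein, therefore all had H3K4me3, and COL9A1 lacked the H3K27me3 of COL9A2 and COL9A3. Among transmembrane collagens COL13A1, COL23A1 and COL25A1 were bivalent and COL17A1, the hemidesmosome collagen of epithelia, was in the other state in DMSO. Of the multiplexins, which release anti-angiogenic fragments, COL18A1 was active and COL15A1 bivalent in DMSO. COL26A1 was Polycomb and COL28A1 bare, although COL28A1 had H3K4me1 in 2 of 3 lists of each treatment and H3K27me3 in 1 DMSO list.

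COL18A1 had the highest rank of all members in promoter H3K4me3, with a mean percentile of 88.3 among the peaks of its list by −log10 q-value. Its fold enrichment was 52.4, 51.5 and 16.7 in DMSO and 42.6, 55.0 and 24.8 in doxycycline, so the groups overlapped and replicate 3 was the lowest in both. H3K27ac lay at 3.45, 3.11 and 2.45 in DMSO and 4.43, 3.95 and 3.71 in doxycycline. In H3K27me3 a peak was called in DMSO replicate 3 and doxycycline replicates 1 and 3, at 2.19, 1.96 and 3.45, and these were 108 to 1758 bp long.

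Counted by library, more members had an H3K27me3 promoter peak in doxycycline and fewer an H3K27ac peak, but no difference between treatments passed its test. H3K27me3 was found at 24, 21 and 24 members in DMSO and 27, 25 and 25 in doxycycline. The groups did not overlap, at 23 ± 1.73 and 25.7 ± 1.15 (SD, n = 3), and the exact permutation test gave p = 0.1, which is the smallest that 3 libraries against 3 can give (adjusted p = 0.375 over 5 marks). With fragment-length kind as a term the difference was 2.25 members with an exact p of 0.222, where 0.111 is the smallest possible. Over all genes the share with an H3K27me3 peak was 22.8 to 29.0% in DMSO and 24.8 to 31.1% in doxycycline, against 47.7 to 54.5% and 56.8 to 61.4% of members.

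H3K27ac was found at 23, 22 and 20 members in DMSO and 21, 19 and 15 in doxycycline. The difference of −3.33 was within the overlap of the groups (two-sided exact permutation p = 0.2, adjusted p = 0.375). Over all genes the share was 66.9 to 69.6% in DMSO and 66.1 to 69.0% in doxycycline, and in members 45.5 to 52.3% and 34.1 to 47.7%. H3K4me3 was found at 29, 27 and 24 members in both treatments alike. H3K4me1 was found at 38, 36 and 36 members in DMSO and 37, 34 and 34 in doxycycline (exact p = 0.3), and H3K4me2 at 31, 29 and 26 against 32, 30 and 31 (exact p = 0.3). Over all genes the shares in DMSO and doxycycline were 72.8 to 73.9% and 72.4 to 74.0% for H3K4me3. They were 70.3 to 79.1% and 69.7 to 78.2% for H3K4me1, and 72.8 to 78.0% and 74.3 to 79.7% for H3K4me2.

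**Figure D2:**
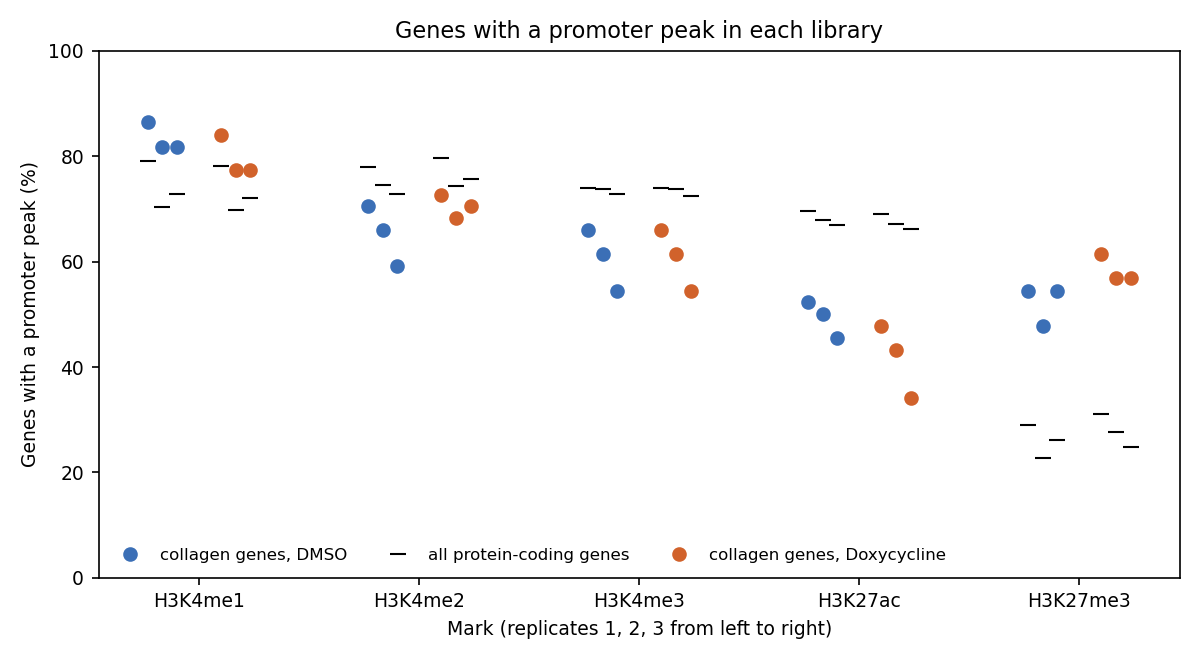
Share of genes with a promoter peak (%) in each library, for the 44 collagen genes (points, DMSO blue, doxycycline orange) and for all 19970 protein-coding genes (black dashes). Members lie above all genes in H3K4me1 and H3K27me3 and below them in the other 3 marks, in every library.

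States were also built for each set of 5 libraries that shared treatment and replicate number. The active state held 9, 12 and 9 members in the DMSO sets and 6, 8 and 5 in the doxycycline sets. These groups did not overlap, at 10 ± 1.73 and 6.33 ± 1.53 (SD, n = 3), with an exact permutation p = 0.1 (adjusted p = 0.6 over 6 states) and, with kind as a term, a difference of −3.75 and an exact p of 0.222. Over all genes the active share was 56.9, 59.3 and 56.7% in the DMSO sets and 55.4, 57.1 and 57.4% in the doxycycline sets, which overlap. Bivalent members numbered 19, 14 and 13 in DMSO and 22, 17 and 15 in doxycycline (exact p = 0.5), and Polycomb members 5, 7 and 11 against 5, 8 and 10 (exact p = 1). With kind as a term the difference was 1.00 in bivalent members (exact p = 0.778) and 1.25 in Polycomb members (exact p = 0.556). The bivalent share of all genes was 16.4, 12.9 and 14.7% in DMSO and 18.0, 15.4 and 13.3% in doxycycline. The Polycomb share was 12.6, 9.89 and 11.4% against 13.1, 12.3 and 11.5%.

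**Figure D3:**
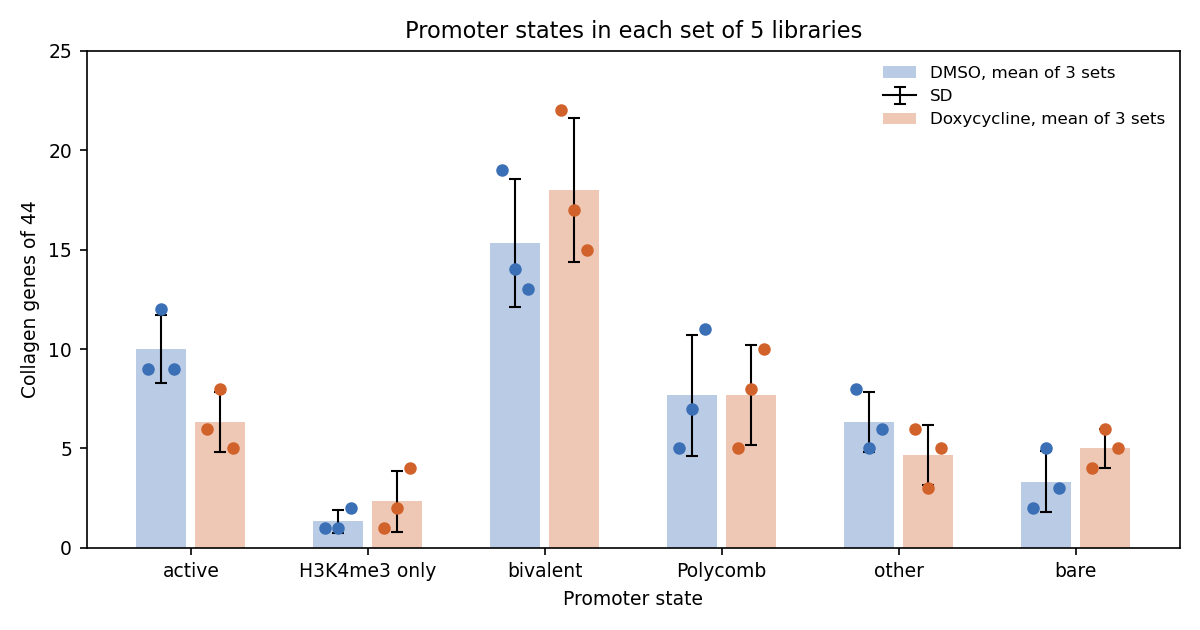
Number of the 44 collagen genes in each promoter state, for each set of 5 libraries (points), with the mean of the 3 sets (bars) and the SD. In the active state the DMSO sets hold 9 to 12 genes and the doxycycline sets 5 to 8, and the groups overlap in the other 5 states.

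By marks present in 3 of 3 lists, 9 of 44 members had another state in doxycycline, where 7.15% of all genes did. Of these, 4 went from active to bivalent, namely COL1A1, COL5A1, COL4A1 and COL4A2, and over all genes 229 of the 11864 active in DMSO did so (1.93%). COL4A1 and COL4A2 share 1 promoter and count as 1 event. The doxycycline lists of H3K27me3 held 2 of the long kind and the DMSO lists 1, and the part of this in the 4 was not tested. The remaining 5 were COL15A1 (bivalent to Polycomb), COL8A1 (Polycomb to bivalent), and COL24A1, COL6A3 and COL17A1 (other to bare). Over all genes, 3.88% of those bivalent in DMSO were Polycomb in doxycycline, and 3.13% of those Polycomb in DMSO were bivalent. Of all genes in the other state in DMSO, 20.6% were bare in doxycycline. Counting a mark as present in 2 of 3 lists gave 8 members, of which 4 (COL24A1, COL5A1, COL4A1 and COL4A2) were among the 9. Of the 4 genes that went from active to bivalent, none differed in state at a q of 0.001 or less. With lists of equal length COL5A1 was the only 1 of them that did. All 4 differed with 2.5 kb windows, with main starts alone, with at least 200 bp shared, and without replicate 1 or 2. Without replicate 3 COL1A1 did not.

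COL5A1, which codes for the main chain of the fibril-seeding type V collagen, was the 1 member with a promoter peak in all lists of one treatment and in no list of the other. H3K27me3 had no peak within 1 kb of its starts in the DMSO lists, the nearest to its main start being 18945, 63345 and 32617 bp away. In doxycycline a peak lay 215, 354 and 188 bp from the main start in replicates 1 to 3, with fold enrichment 2.71, 2.27 and 2.54, −log10 q-value 7.44, 3.72 and 1.87 and length 1382, 1261 and 810 bp. The merged interval, chr9:134641991-134643417, touched an exon. DMSO replicate 1 was of the long kind, as were doxycycline replicates 1 and 2, and replicate 3 of doxycycline was of the short kind. The call was absent at a q of 0.001 or less and when the lists were shortened to equal length.

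The same COL5A1 promoter carried the H3K4 methylation marks in all lists. H3K4me3 fold enrichment was 27.8, 32.8 and 19.2 in DMSO and 28.2, 32.9 and 17.3 in doxycycline, which overlap. H3K4me1 was among the strongest of any member, at a mean percentile of 99.7 over the 6 lists, in peaks of 5419 to 9020 bp. H3K27ac was called in all 3 DMSO lists, at 2.31, 2.56 and 2.02, and in doxycycline replicates 1 and 2, at 2.34 and 2.05.

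Across all genes, an H3K27me3 promoter peak in all doxycycline and no DMSO lists was found at 0.190%, and the opposite at 0%. For the other marks no member had such a difference in either direction. The shares of all genes with peaks in all doxycycline and no DMSO lists were 0.125% for H3K4me1, 0.03% for H3K4me2, 0.0551% for H3K4me3 and 0.110% for H3K27ac. In the opposite direction they were 0.190%, 0%, 0.0751% and 0.22%. With 44 members a single gene sets the share, so nothing is read from it about the members as a whole.

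At COL1A1 the difference of state rested on H3K27me3 in 1 list. H3K27me3 peaks over its start were called in DMSO replicates 1 and 2 (fold enrichment 2.49 and 2.67) and in doxycycline replicates 1 to 3 (3.25, 2.39 and 2.64), and were 614 to 1474 bp long. Its H3K27ac peaks were weak, at 1.72, 1.81 and 1.67 in DMSO and 2.11 in doxycycline replicate 1, with none in replicates 2 and 3. The DMSO list without H3K27me3, replicate 3, was of the short kind.

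COL8A1, a short-chain collagen of vessel walls, had H3K4me3 at 3.69 and 3.92 in DMSO replicates 1 and 2 and at 6.59, 6.07 and 3.73 in doxycycline. Its H3K4me2 peaks were at 4.16 and 4.79 in DMSO replicates 1 and 2 and at 13.2, 7.19 and 6.07 in doxycycline, higher in each doxycycline list than in any DMSO list. This was not particular to COL8A1, since COL19A1 had 6.17 to 7.99 in DMSO and 10.2 to 22.9 in doxycycline, while at COL4A1 the groups overlapped. Fold enrichment also depends on the depth of each library. At COL8A1 H3K27me3 was present throughout, at 3.21, 3.47 and 3.11 in DMSO and 2.90, 2.82 and 3.72 in doxycycline. At COL15A1 the difference lay in H3K4me3, which was called at 6.25, 5.18 and 3.55 in DMSO but in 2 of 3 doxycycline lists, at 6.75 and 4.39 in replicates 1 and 2. H3K27me3 at COL15A1 lay at 4.10, 3.21 and 3.29 in DMSO and 3.01, 3.12 and 3.62 in doxycycline.

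COL24A1, a fibrillar chain of developing bone and cornea, was the 1 of the 3 genes bare in doxycycline whose state rested on H3K27ac. Its H3K27ac peaks had fold enrichment 4.96, 4.59 and 4.14 in DMSO, with lengths of 2044 to 3031 bp, and were called in doxycycline replicate 3 alone, at 3.61. H3K4me1 was called there in DMSO replicate 2 alone (2.84) and the other 3 marks in no list. COL6A3 had H3K4me1 at 2.91, 2.19 and 2.1 in DMSO and 2.73 and 2.56 in doxycycline replicates 1 and 3, with H3K27ac in DMSO replicate 2 alone (2.23). COL17A1 had H3K4me1 at 2.61, 2.13 and 1.94 in DMSO and 2.50 in doxycycline replicate 2, and H3K27ac in 2 of 3 lists of each treatment at 2.20 to 2.38. At these 2 genes 1 or 2 weak calls set the state.

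Both genes of each of the 3 head-to-head type IV pairs had the same state. COL4A1 and COL4A2 were active in DMSO and bivalent in doxycycline, and the other 4 genes were Polycomb in both treatments, H3K4me1 being found beside H3K27me3 in 1 of those pairs. The COL4A1 and COL4A2 chains form the ubiquitous basement membrane network, COL4A3 and COL4A4 with COL4A5 that of the kidney glomerulus, and COL4A5 with COL4A6 that of smooth muscle and some epithelia. Since the 1 kb windows of each pair overlap, calls for both genes are not independent.

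COL4A1 and COL4A2 had 1 H3K4me3 peak that held both starts in 6 of 6 lists. It was 3122 to 3335 bp long in DMSO and 2878 to 3272 bp in doxycycline, with fold enrichment 33.4, 47.3 and 17.6 in DMSO and 36.9, 42.9 and 29.4 in doxycycline. H3K27ac also held both starts in all lists, at 5.16, 5.24 and 2.89 in DMSO and 3.82, 3.40 and 3.30 in doxycycline. These fold enrichments overlapped, but the H3K27ac peak was shorter in each doxycycline list, at 1335, 1169 and 933 bp, than in any DMSO list, at 1856, 1685 and 1752 bp. Peak length moves with calling depth, which was lower in doxycycline, and its part was not tested. H3K4me2 held both starts in all lists, at 16.1, 10.7 and 6.83 in DMSO and 38.8, 11.8 and 18.9 in doxycycline. H3K4me1 was called in all lists and held both starts in 5 of 6, DMSO replicate 3 having separate peaks on either side.

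H3K27me3 at COL4A1 and COL4A2 was called in DMSO replicate 1 (fold enrichment 1.75, 418 bp) and in doxycycline replicates 1 to 3 (2.24, 2.48 and 2.53 at COL4A1, 3012, 685 and 253 bp). The peak held both starts in doxycycline replicate 1 alone. It was thus called in 3 of 3 lists of the long kind and in 1 of 3 of the short kind.

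COL4A3 and COL4A4 lay under a H3K27me3 peak that held both starts in 6 of 6 lists. Its fold enrichment was 4.53, 4.90 and 3.77 in DMSO and 4.22, 3.48 and 3.94 in doxycycline, and the pair's peaks stood at the percentile of 96.9 or above in every list. H3K4me1 was also found in all lists, at 2.94, 2.58 and 2.37 in DMSO and 3.25, 2.77 and 2.53 in doxycycline, in peaks of 860 to 1494 bp. H3K4me2 was called in DMSO replicate 1 (4.77) and in doxycycline replicates 1 to 3 (7.07, 4.93 and 4.16), and H3K4me3 in replicate 1 of each treatment (3.63 and 4.79). H3K27ac was called in no list.

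COL4A5 and COL4A6 had H3K27me3 in 6 of 6 lists and none of the other 4 marks in any list, a combination found at 5.04% of all genes. Fold enrichment at COL4A5 was 2.49, 2.94 and 2.65 in DMSO and 2.74, 2.52 and 3.09 in doxycycline. The peak held both starts in DMSO replicate 1 and doxycycline replicates 1 and 2, all of the long kind, with lengths of 5463, 3495 and 3731 bp. In the short kind the summed length of peaks was 467 to 639 bp.

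**Figure D4:**
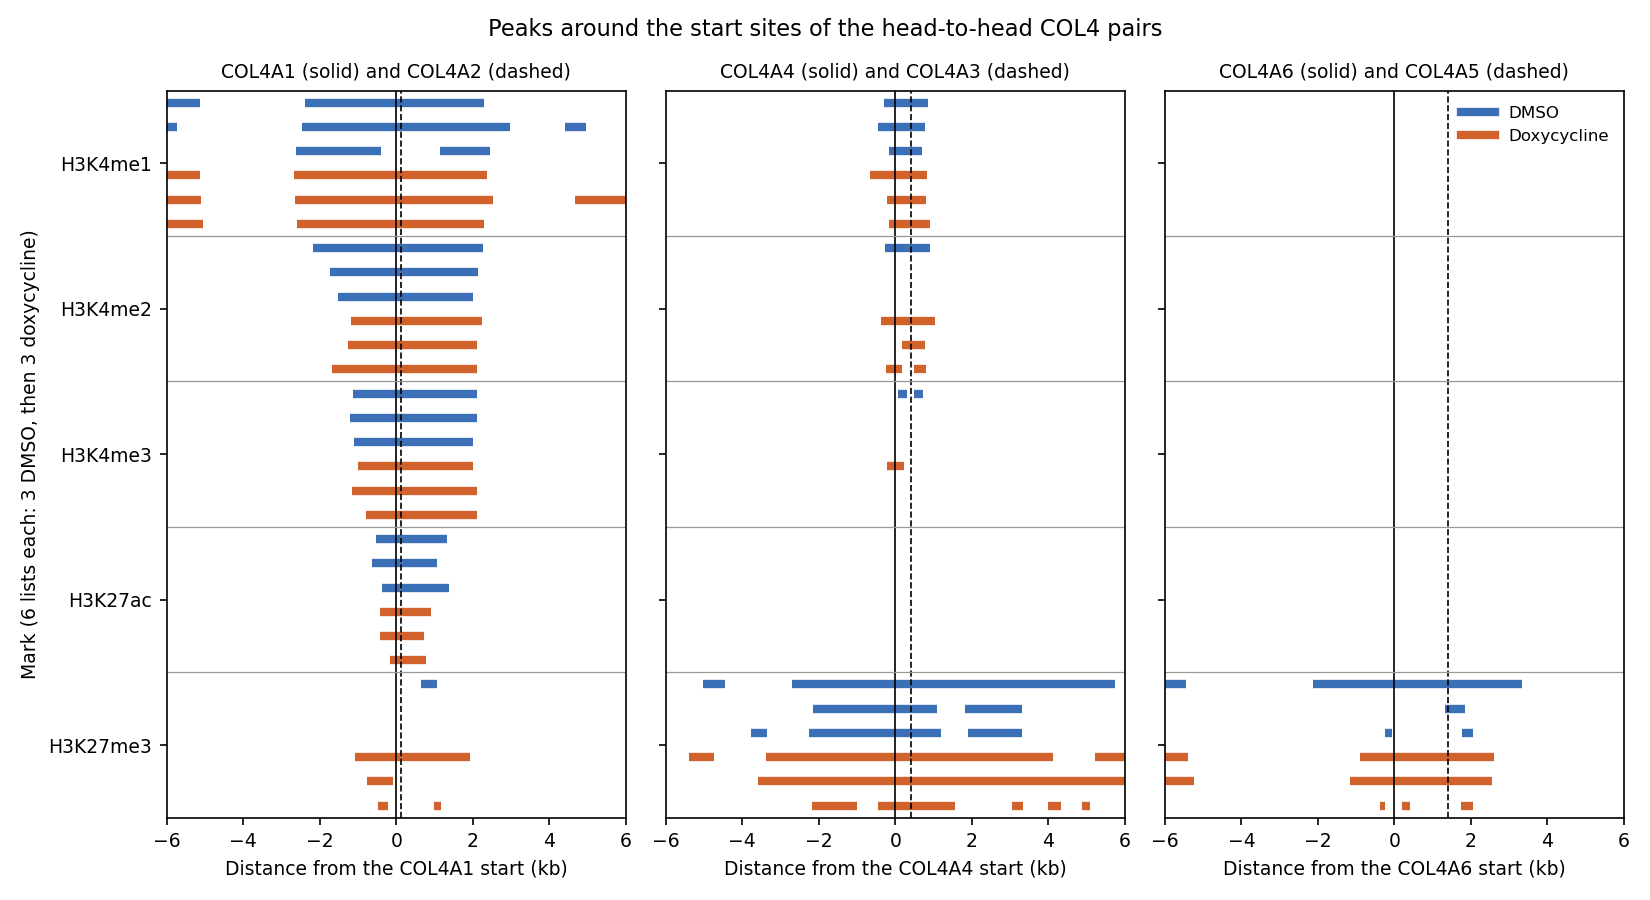
Peaks (bars, DMSO blue, doxycycline orange) of each of the 30 lists around the starts of the 3 head-to-head COL4 pairs, by distance in kb from the start of the gene on the left (solid line), with the start of its partner dashed. The COL4A1 and COL4A2 starts sit inside peaks of the 3 H3K4 methylation marks and H3K27ac, the COL4A3 and COL4A4 starts inside H3K27me3 and H3K4me1 peaks, and the COL4A5 and COL4A6 starts meet H3K27me3 peaks alone.

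Gene bodies, taken from annotated start to end without the promoter windows, made up 6.24 Mb in the 44 members. H3K27me3 covered 12.8, 2.77 and 3.39% of them in DMSO and 15.9, 11.8 and 3.17% in doxycycline. These values followed the kind of list, with 11.8 to 15.9% in the long kind and 2.77 to 3.39% in the short kind, and with kind as a term the difference between treatments was 0.604 percentage points (exact p = 0.889). Over all gene bodies H3K27me3 covered 9.36, 3.51 and 3.60% in DMSO and 10.6, 8.85 and 3.73% in doxycycline, likewise higher in the long kind. H3K27ac covered 5.91, 5.55 and 3.65% of member bodies in DMSO and 5.51, 4.57 and 2.84% in doxycycline (exact permutation p = 0.5). Its share of all gene bodies was 5.67, 4.60 and 4.14% against 5.40, 4.64 and 3.86%. H3K4me1 covered 9.57 ± 1.60% and 8.35 ± 1.27% (SD, n = 3, exact p = 0.5), and H3K4me2 and H3K4me3 covered between 0.179 and 4.0% over their 12 lists (exact p = 0.7 and 1). No mark passed the test, and none could, since the smallest p of 3 libraries against 3 is 0.1 and the threshold was 0.05.

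H3K27me3 covered most of the body of COL20A1 in every list, and a share of other bodies that varied between lists. COL20A1, a FACIT gene, was covered at 100, 95.3 and 80.9% in DMSO and 100, 100 and 86.7% in doxycycline. COL5A3, the third type V chain, was covered at 95.3, 50.2 and 29.5% in DMSO and 97.1, 92.9 and 45.9% in doxycycline. COL4A3 was covered at 57.1, 15.4 and 20.9% in DMSO and 67.5, 56.8 and 15.7% in doxycycline. In COL5A3 and COL4A3 the lists of the long kind were the 3 highest whatever the treatment. The median member had 0.293% of its body under H3K27me3 and 13 members had none in any list. Members Polycomb in both treatments had a median of 34.0%, and those active in both 0.154%.

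H3K27ac covered its highest shares of the body in 3 members with H3K4me3 promoters. COL9A3, although bivalent, had the highest share of its body under H3K27ac, at 57.5, 59.3 and 24.4% in DMSO and 66.2, 66.2 and 52.9% in doxycycline. COL6A1 had 52.7, 49.2 and 15.1% in DMSO and 76.5, 80.5 and 11.7% in doxycycline, and COL18A1 had 51.4, 54.5 and 20% against 65.5, 59.0 and 25.9%. Replicate 3 was the lowest in both treatments at each of these genes, and the groups overlapped. COL9A3 also had the highest H3K4me1 share (mean 61.0%), followed by COL1A1 (58.3%) and COL5A1 (49.3%).

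**Figure D5:**
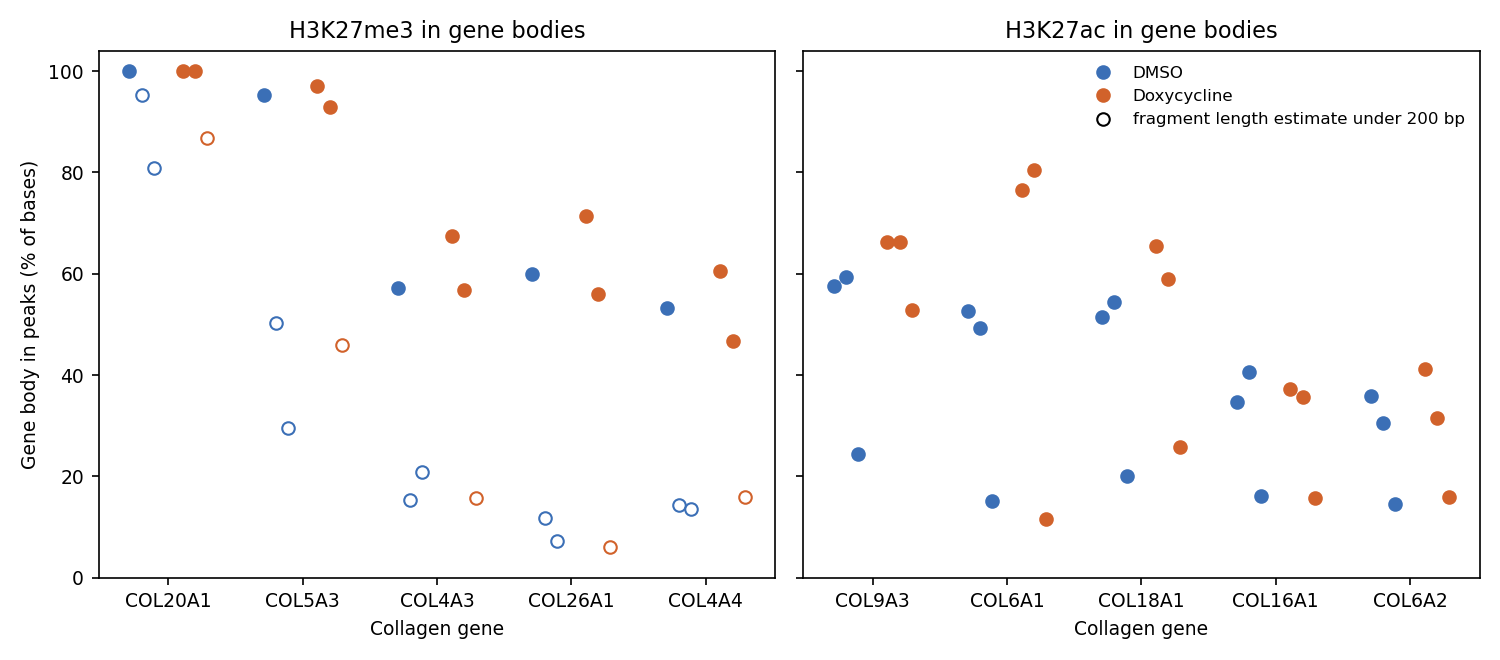
Share of the gene body in peaks (% of bases) for the 5 members with the highest mean share of H3K27me3 (left) and H3K27ac (right), in each of the 6 libraries (DMSO blue, doxycycline orange, open symbols for fragment length estimates under 200 bp). H3K27me3 shares of COL5A3, COL4A3, COL26A1 and COL4A4 separate by fragment length kind, and COL20A1 is at 80.9% or more in every library.

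Within the bodies, H3K27ac peaks with H3K4me1 and without H3K4me3, a combination common at enhancers, were counted where all 3 lists of a treatment had the mark. There were 70 such regions in DMSO and 52 in doxycycline, in 17 of the 44 members. Members with any such region made up 38.6% in DMSO and 31.8% in doxycycline, against 18.7 and 15.9% of all genes, whose bodies are shorter (median 27.5 kb against 145 kb). Over all gene bodies the number was 10102 in DMSO and 7916 in doxycycline, so that the doxycycline count was 78.4% of that in DMSO, against 74.3% in the members. COL23A1, a transmembrane collagen, held 23 and 18 of them, COL5A1 10 and 7, and COL4A2 9 and 3. The number was lower in doxycycline in 9 of the 17 members, equal in 7 and higher in COL22A1 (4 and 6). These counts carry no test, and calling depth was lower in doxycycline.

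Body regions that had a peak in every list of 1 treatment and in no list of the other were few. H3K27ac had 7 of 232 merged regions in DMSO alone, in COL4A1, COL4A2, COL23A1 (3 regions), COL6A5 and COL27A1, and 1 in doxycycline alone, in COL22A1. Over all gene bodies the shares were 1.99% in DMSO alone and 0.632% in doxycycline alone. This direction turned with lists of equal length, in which each mark's lists were limited to the same number of peaks, those with the lowest q values, with 2 regions in DMSO alone and 4 in doxycycline alone. The highest-ranked of the 7 lay in introns of COL4A1 (chr13:110244642-110246958, fold enrichment 2.46 to 2.94) and COL4A2 (chr13:110371375-110372281, 2.37 to 3.10).

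H3K27me3 had 5 of 403 regions in doxycycline alone, in COL8A1 (2 regions), COL25A1, COL4A4 and the COL5A1 region above, and 0 in DMSO alone, against 0.386% and 0.0187% over all gene bodies. With lists of equal length the count in doxycycline alone was 0. That in COL4A4 touched an exon (chr2:227031952-227032273, 2.31 to 3.01).

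H3K4me1 had 2 of 483 regions in doxycycline alone and 3 in DMSO alone, against 0.325% and 1.33% over all gene bodies. The 2 lay in introns of COL5A1 (chr9:134666538-134667708) and COL22A1, and the 3 in COL6A6 (exon), COL4A2 (chr13:110314017-110315178, intron) and COL28A1 (exon). H3K4me2 had 1 of 289 in doxycycline alone, in COL22A1 (fold enrichment 5.05 to 9.59), and 2 in DMSO alone, in introns of COL4A2 (chr13:110375951-110376945, 3.74 to 7.09) and COL6A5, against 0.154% and 0.302%. H3K4me3 had 0 of 46 in either direction, against 0.259% and 0.640%. COL4A2 thus appeared on the DMSO side in 3 marks and COL22A1 on the doxycycline side in 3, with 1 region per mark, at other places of the gene. Both genes are long (207 and 326 kb), so nothing is read from this about either gene. With lists of equal length H3K4me1 had 4 regions in doxycycline alone and 2 in DMSO alone.

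The genes that make, bind and cut collagen were read in the same way, beside the 59.4% of all genes that were active in DMSO and 58.2% in doxycycline. Of 33 biosynthesis genes, which hydroxylate, fold, export, trim and crosslink the chains, 26 were active in each treatment and all 33 had H3K4me3 in all lists. They include the prolyl hydroxylases P4HA1 and P4HA2, the lysyl hydroxylases PLOD1, PLOD2 and PLOD3, and the collagen chaperone SERPINH1. Over all genes, H3K4me3 was in 3 of 3 DMSO lists at 72.6% and in 3 of 3 doxycycline lists at 72.3%. P4HA3, P3H2, COLGALT2, TLL2 and LOXL2 were bivalent in both treatments and the crosslinking oxidase LOX had H3K4me3 alone. LOX had H3K27ac in 2 of 3 lists of each treatment. ADAMTS14, a procollagen protease, was bivalent in DMSO and active in doxycycline. BMP1, which trims the C-terminal propeptide, was active in DMSO and bivalent in doxycycline. Single lists set these states. At ADAMTS14 H3K27me3 was called in 3 of 3 DMSO and 2 of 3 doxycycline lists, and H3K27ac in 2 and 3. At BMP1 H3K27me3 was called in 2 of 3 DMSO and 3 of 3 doxycycline lists. Of 11 receptor genes, 6 were active in both treatments (ITGA1, ITGA11, ITGB1, DDR1, DDR2 and ADGRG1), ITGA2 was bivalent and ITGA10, GP6, LAIR1 and CD36 were bare. LAIR1 had H3K27me3 in 2 of 3 DMSO and 1 of 3 doxycycline lists. Of 6 collagenases and gelatinases, MMP2 was active, MMP1, MMP9, MMP13 and MMP14 were Polycomb and MMP8 was bare. MMP8 had H3K27me3 in 2 of 3 lists of each treatment, so 1 list in each kept it from the Polycomb state. The differences between these lists and the collagen genes were not tested.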

How the data were processed

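ChIP-seq peak lists of 5 marks in KELLY cells, 3 per mark and treatment, were used, with groups from the labels (34 samples, 4 of them inputs). Per the file headers the authors called peaks per library against input with MACS2 2.1.1.20160309 on hg38, in broad mode at q 0.05 (linking at 0.1) for H3K4me1, H3K27ac and H3K27me3 (18 lists) and in narrow mode at p 1e-05 for H3K4me2 and H3K4me3 (12 lists). The methods of the study state another cutoff for the narrow lists and paired-end reads, whereas the headers of all 30 lists show single-end reads. The headers were followed. The input totals of replicates 1 and 3 were identical in both treatments. The submitters' processing notes also name Bowtie2, SAMtools and deepTools.

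The deposited pileup is fragment coverage (signal). The authors' peak caller also gave each peak a −log10 p-value, a −log10 q-value and a fold enrichment (a ratio of ChIP signal to local input), all as deposited. These values depend on the depth of each library and were used to describe, rank or filter peaks, while treatments were compared by presence of a peak.

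Analyses used python 3.11.15, numpy 2.4.6, pandas 2.3.3, scipy 1.17.1 and the GENCODE release 44 annotation. Interval functions were checked against bedtools 2.31.1 and tested on simulated data. Tests were two-sided exact permutations over the 20 assignments of 3 of 6 libraries, adjusted by Benjamini-Hochberg within each family. Genes named with values in each list were the COL4 genes, those whose state or promoter peaks differed, COL1A1, COL1A2, COL3A1, the highest 3 in body H3K27me3 and H3K27ac, the highest in promoter H3K4me3, and up to 2 body regions per mark and direction. COL9A2 and COL28A1 as sequence examples and the other counts by gene were chosen after values were seen. The members and lists were chosen with earlier results of these data known. In H3K4me2 libraries with the same number deviated together from the mean of their group, with a correlation over 0.1 in each of the 3 pairs (0.103 to 0.485), and the replicate block changed no call. Alternatives are given in the closing section. Some Schwann cell markers are not reported here.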

Additional observations from a re-analysis of the deposited data

How the results depend on the processing

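Of 304 alternatives over 49 results, 271 kept their direction and their side of the threshold or stayed within 1.5 times a count, 10 reversed and 23 moved further. The design cannot pass its threshold, so this says nothing of stability, and the cause was not tested. Of 16 tested differences (doxycycline minus DMSO), 11 reversed under no alternative. At a q of 0.001 or less, the difference in members with an H3K4me1 promoter peak was 0.667, in the H3K4me3 state −1.33 and in the bare state −0.333, 1 member had H3K27ac peaks in all DMSO and no doxycycline lists (COL9A2), and 0 had H3K27me3 the other way. This setting leaves the narrow lists as they are. With lists of equal length the H3K4me1 difference was 1.67, 0 members had H3K27me3 in doxycycline alone and 5 differed in state (4 of the 9). Leaving out replicates gave −0.535 to 0.933 percentage points for the body share of H3K4me2 (below 0 without doxycycline replicate 1 or DMSO replicate 3) and −0.0472 to 0.0498 for H3K4me3. With 2 of 3 lists, H3K4me3 alone held 1 member in DMSO and 2 in doxycycline, the bare state 3 and 5, and the other state 5 in doxycycline. Alternatives for the count of members that differed in state, other than 2 of 3 lists, were added after seeing the data and gave 5 to 13.

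Body regions in doxycycline alone numbered, with lists of equal length, 4 (H3K4me1), 2 (H3K4me2), 2 (H3K4me3), 4 (H3K27ac) and 0 (H3K27me3), and in DMSO alone 1 (H3K4me3) and 2 (H3K27ac), so that for H3K4me1 and H3K27ac more regions were in doxycycline alone than in DMSO alone, the other way round from the values in the report. In 1 kb bins they numbered 10, 2, 1, 6 and 10, with 32 (H3K4me1) and 29 (H3K27ac) in DMSO alone.

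With the replicate block, H3K27me3 promoter peaks differed by 2.67 members and the active state by −3.67 (exact p = 0.25 for both, the smallest of 8 sign flips), and no call was altered. Same-numbered libraries had a correlation over 0.1 in every pair in H3K4me2. In the other marks it differed between pairs, from 0.0651 to 0.292 in H3K4me1 and 0.0918 to 0.383 in H3K4me3. It was 0.0863 to 0.312 in H3K27ac and −0.0266 to 0.336 in H3K27me3. In those marks some pairs deviated together, and whether same-numbered libraries were paired cannot be told.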
